A study of Homo sapiens with 6 samples.

Results

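The genes described here are 33 genes of the G1/S transition and DNA replication, chosen by symbol from the 19923 genes of the deposited count table. All 33 were in the table and all 33 had enough counts to be tested, among 14086 genes tested in all. The RNA came from BT549 cells, an established human line from a breast tumour, and was sequenced in 3 libraries labelled ENL and 3 labelled control. The labels give ENL as the treatment without spelling it out, and give no dose, duration, vehicle or genotype, so ENL is used only as a group name. Whether replicate libraries stem from separate cultures is not in the labels, and the p-values therefore reflect the spread among these 6 libraries, which may be technical. The comparison asks how the level of each gene in the ENL libraries differed from that in the control libraries.

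Before S phase, the origin recognition complex with CDC6 and CDT1 loads the MCM2 to MCM7 ring onto origins, a step called licensing. CDC45 and the GINS complex turn that ring into the active helicase, and primase, polymerases, the sliding clamp and its loader then copy the DNA from nucleotides supplied by ribonucleotide reductase, thymidylate synthase and thymidine kinase. Many of these genes are targets of E2F transcription factors, which cyclin E with CDK2 helps to release from the retinoblastoma family, and their RNA rises towards S phase in cycling cells.

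Library totals were 74457932 to 85310759 units in ENL and 76387436 to 80964005 units in control, where 1 sequenced fragment was worth about 4 units. Levels are given as CPM, counts relative to library size with libraries scaled by the trimmed mean of M values (TMM). Ribosomal protein genes took 10.9% to 13.4% of the units in ENL libraries and 7.84% to 8.25% in control libraries, and mitochondrially encoded genes 7.71% to 8.64% in ENL and 9.73% to 10.9% in control. On the second principal component ENL library 3 scored 55.8, against -22 and -26.3 for ENL libraries 1 and 2, and counts are therefore also given without it. Of 4 mesenchymal markers VIM and FN1 rose, SPARC fell and ZEB1 did not pass. VIM averaged 5950 ± 503 CPM in ENL and 2740 ± 453 CPM in control, and SPARC 92.7 ± 3.05 CPM in ENL and 331 ± 5.2 CPM in control (SD, n = 3 each). The epithelial markers CDH1 and EPCAM stayed at or below 0.205 CPM on average, and PGR and CDH5 were at 0 in all libraries. The receptor gene ERBB2 averaged 64.5 CPM in ENL and 78.4 CPM in control and fell. Of the leukocyte markers, PTPRC averaged 0.0943 CPM in ENL and 0.494 CPM in control. CD68, from the same list, averaged 57.4 CPM in ENL and 62.7 CPM in control and did not pass. Among 4 epithelial markers KRT8 rose, and their summed level was 56 to 68.2 CPM in ENL and 36.7 to 47.9 CPM in control. The part of these differences in the results below was not tested.

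More replication genes were lower than higher in ENL, with CDT1 as the main exception. Of the 33 genes, 19 fell, 2 rose (CDT1 and MCM5) and 12 did not pass an adjusted p of 0.05 in edgeR's quasi-likelihood test. Over all genes tested 38.4% passed, 18.4% as lower and 20.0% as higher. The median log2 fold change was -0.46 for the 33 genes and -0.02 for all genes tested. All 3 ENL libraries lay below all 3 control libraries for 22 of the 33 genes and above them for 2, against 27.6% and 26.4% of all genes tested. At least 2-fold falls were limited to 3 genes (CCNE2, E2F2 and E2F8), where 6.02% of all genes tested fell by that much. The roles described below hold 2 to 6 of the 33 genes each. Their counts and medians are given only as descriptions, and differences between roles were not tested. In bulk libraries, fewer cells that express a gene and less of its RNA per cell cannot be told apart.

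The 33 genes sat at a similar distance below control in each ENL library. The median log2 difference of the 33 genes from the control mean was -0.42, -0.44 and -0.46 in ENL libraries 1, 2 and 3. Without ENL library 3, 19 of the genes were lower and 2 higher, and with TMM factors computed without ribosomal protein and mitochondrial genes 18 were lower and 2 higher. Scaling by library totals alone moved the median of all genes to -0.23 and that of the 33 genes to -0.67. A change of scaling shifts all genes by nearly the same amount. The distance between the medians, -0.44 on both scales, was therefore bound to stay and is not a check. Library totals called 23 of the 33 genes lower and 1 higher. Over all genes that scaling called 1804 higher and 3996 lower (31.1% higher), against 2819 higher and 2585 lower (52.2% higher) with TMM. With upper-quartile scaling the median of all genes was -0.11, and 20 of the 33 genes were lower and 1 higher.

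**Figure D1:**
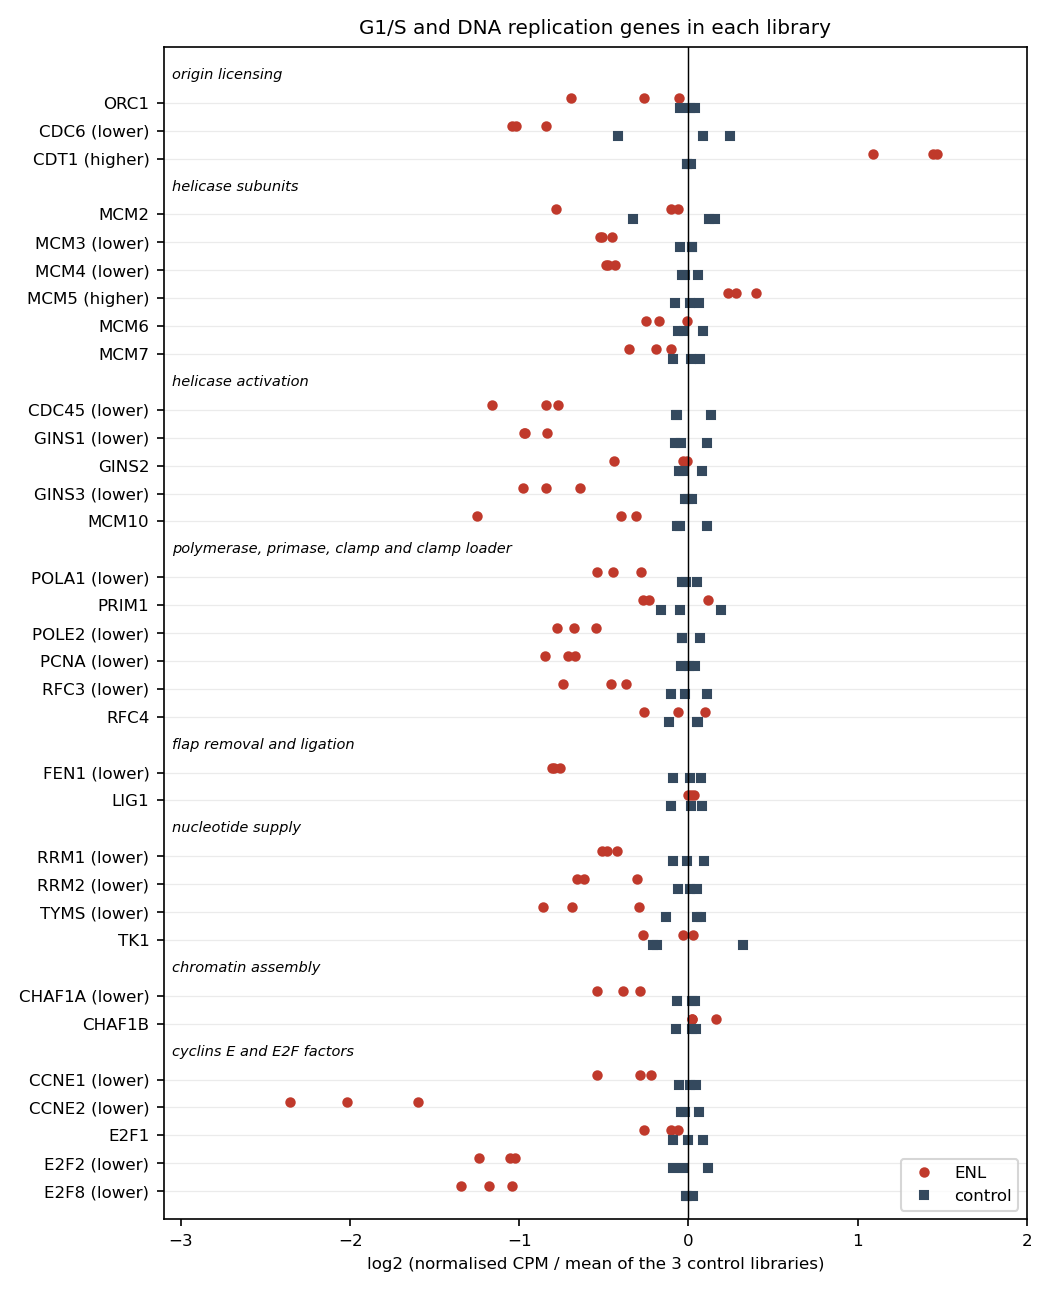
Log2 of each library's CPM over the mean of the 3 control libraries, for the 33 genes in their role groups, with ENL libraries as circles and control libraries as squares; the words after a symbol give the call in edgeR's test. CDT1 and MCM5 lie to the right of their control libraries, and 22 genes have all 3 ENL libraries to the left.

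Promoter sequences are shown for the 5 genes with the smallest adjusted p among those with an E2F-type match, because E2F factors are the shared regulators of this group by textbook knowledge and 1 of the 5, CDT1, moved against the other 4. The windows are those of RefSeq (GRCh38.p14), from 250 bases before to 50 bases after the first listed start of each gene, and were found for 29 of the 33 genes. Capitals mark matches on either strand to the letters TTGGCGC, to the letters TTCCCGC, to the letters TTGCCGC or to the letters TTCGCGC, which are E2F-type strings, and sequences are written in the direction of the gene. The windows are chr16:88803539-88803838 (plus strand) for CDT1, chr1:23531184-23531483 (minus) for E2F2, chr20:5126573-5126872 (minus) for PCNA, chr20:25407423-25407722 (plus) for GINS1 and chr6:52284693-52284992 (minus) for MCM3.
CDT1: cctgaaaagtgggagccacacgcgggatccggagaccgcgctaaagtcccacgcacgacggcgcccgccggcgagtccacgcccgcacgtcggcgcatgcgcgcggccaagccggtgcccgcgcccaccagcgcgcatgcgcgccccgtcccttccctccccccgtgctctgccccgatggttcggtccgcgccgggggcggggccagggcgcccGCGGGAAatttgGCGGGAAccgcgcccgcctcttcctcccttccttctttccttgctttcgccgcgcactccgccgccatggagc
E2F2: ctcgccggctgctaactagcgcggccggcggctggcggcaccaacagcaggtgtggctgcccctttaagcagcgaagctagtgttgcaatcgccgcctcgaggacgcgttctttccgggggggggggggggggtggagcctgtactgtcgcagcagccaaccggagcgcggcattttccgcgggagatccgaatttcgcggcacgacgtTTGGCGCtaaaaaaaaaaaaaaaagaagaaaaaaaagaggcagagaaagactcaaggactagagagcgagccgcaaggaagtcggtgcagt
PCNA: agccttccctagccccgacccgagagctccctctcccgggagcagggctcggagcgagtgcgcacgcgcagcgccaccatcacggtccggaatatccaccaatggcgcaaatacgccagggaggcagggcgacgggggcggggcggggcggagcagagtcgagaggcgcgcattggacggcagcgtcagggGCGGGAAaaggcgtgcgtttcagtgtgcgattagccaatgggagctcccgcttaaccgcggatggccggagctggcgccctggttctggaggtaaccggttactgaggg
GINS1: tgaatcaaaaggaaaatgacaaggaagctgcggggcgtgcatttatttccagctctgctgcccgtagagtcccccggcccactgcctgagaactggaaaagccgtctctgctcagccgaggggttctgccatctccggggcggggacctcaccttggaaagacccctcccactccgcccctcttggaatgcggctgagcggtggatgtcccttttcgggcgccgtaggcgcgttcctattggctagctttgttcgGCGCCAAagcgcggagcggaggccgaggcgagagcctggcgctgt
MCM3: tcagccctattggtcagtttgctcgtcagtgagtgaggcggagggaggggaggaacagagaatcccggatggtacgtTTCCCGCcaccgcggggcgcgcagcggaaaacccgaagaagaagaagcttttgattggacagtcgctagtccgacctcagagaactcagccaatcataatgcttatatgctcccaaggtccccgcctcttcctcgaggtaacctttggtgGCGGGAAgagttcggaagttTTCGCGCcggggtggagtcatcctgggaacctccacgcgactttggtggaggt

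CDT1 has a pair of TTCCCGC matches on the opposite strand, whose first bases lie at -35 and -23 from the start, and E2F2 has TTGGCGC on its own strand at -41. PCNA has 1 match, at -59, GINS1 has 1 match, at 6 bases into the transcript, and MCM3 has 3 matches, at -173, -23 and -3. A match was found in 23 of 29 member windows (79.3%), against 20.4% of the windows of 11028 tested genes and 13.1% of those of 27305 genes in all; the median GC content of the windows was 65% for the 29 genes and for the tested genes. The genes that fell held a match in 12 of 16 windows, and those that did not pass in 10 of 12. FEN1, CDC45, RRM2 and CCNE1 fell with no such letters in the window. CCAAT boxes (CCAAT on either strand) were in 16 of the 29 windows (55.2%), against 36.4% of those of tested genes, and in 4 windows such a box shared bases with an E2F-type match. The letters TTTGAA, the core of the CHR element of mitotic promoters, were in 1 window (3.45%), that of RRM1, against 9.78% of those of tested genes.

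Origin licensing genes moved in different directions. CDT1 (chromosome 16, 88803213 to 88809258, plus strand, GRCh38), which brings the MCM ring to origins, had 145, 147 and 113 CPM in ENL libraries 1, 2 and 3, against 52.8, 52.8 and 53.8 CPM in the control libraries. Every ENL library lay far above every control library, and CDT1 rose 2.54-fold (log2 fold change 1.34 ± 0.11, SE, adjusted p = 0.000276). CDC6 (chromosome 17, 40287633 to 40304657, plus strand), the ATPase that loads the ring together with CDT1, had 27.1, 27.5 and 31.1 CPM in ENL, against 66.2, 41.9 and 59.3 CPM in control. It fell by 48.9% (log2 fold change -0.97 ± 0.17, adjusted p = 0.00528), with control libraries that differed more among themselves than the ENL libraries did. ORC1, the largest subunit of the origin recognition complex, had 26.6, 19.8 and 30.8 CPM in ENL and 32.2, 30.9 and 32.8 CPM in control. The groups of ORC1 did not overlap, but its log2 fold change of -0.31 (95% interval -0.70 to 0.07) did not pass (adjusted p = 0.173), and it was -0.45 without ENL library 3 (adjusted p = 0.0467) but -0.15 without ENL library 2 (adjusted p = 0.327). The value of CDT1 stayed between 1.13 and 1.47 in 17 other settings, and it was 1.26 once transcript length and GC content were corrected for.

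**Figure D2:**
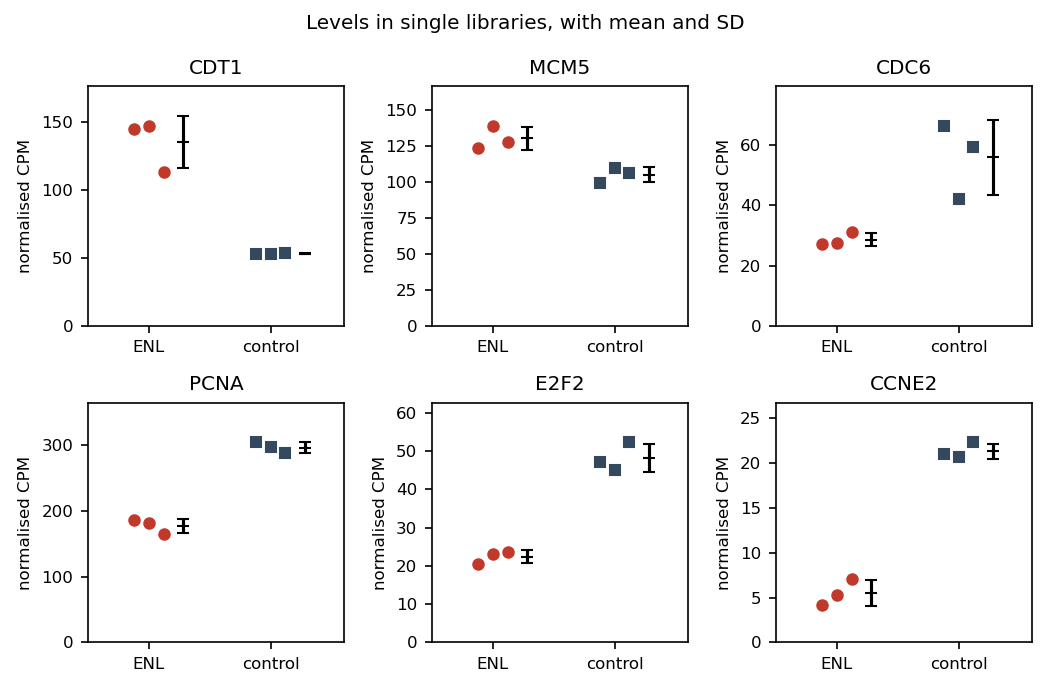
CPM of CDT1, MCM5, CDC6, PCNA, E2F2 and CCNE2 in each library, with the mean and SD of the group (n = 3) beside the points; ENL is at the left and control at the right of each panel. The 3 ENL libraries of CDT1 lie at 113 to 147 CPM and its control libraries at 52.8 to 53.8 CPM, while CCNE2 lies at 4.17 to 7.04 CPM in ENL and at 20.7 to 22.3 CPM in control.

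The 6 subunits of the MCM helicase, which stand in the ring in equal number, did not move together at the RNA level. MCM3 (chromosome 6, 52264009 to 52284881, minus strand) had 115, 121 and 116 CPM in ENL libraries, against 160, 168 and 168 CPM in control libraries, and fell by 29% (adjusted p = 0.00187). MCM4 fell by 27.4%, with 137, 142 and 138 CPM in ENL and 189, 187 and 199 CPM in control (adjusted p = 0.00229). In both genes the libraries of a group lay close together and the groups were well apart. MCM5 (chromosome 22, 35400063 to 35425430, plus strand) had 124, 139 and 128 CPM in ENL, against 99.7, 110 and 106 CPM in control, and rose 1.24-fold (log2 fold change 0.31 ± 0.08, adjusted p = 0.0237). The call of MCM5 was lost with upper-quartile scaling (adjusted p = 0.0753), with library totals (0.346) and without ENL library 2 (0.0587), control library 1 (0.0849) or control library 3 (0.074), although its log2 fold change was above 0 in all 17 settings (0.10 to 0.35).

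MCM2, MCM6 and MCM7 did not pass. MCM2 had 63.7, 105 and 102 CPM in ENL and 87.3, 119 and 122 CPM in control, with 1 low library in each group (log2 fold change -0.28, 95% interval -0.82 to 0.25), and without ENL library 1 its log2 fold change was -0.08. MCM6 had 61, 64.1 and 71.9 CPM in ENL and 76.9, 69.3 and 71.1 CPM in control, and its groups overlapped (-0.14, interval -0.36 to 0.08). MCM7, the most abundant subunit per transcript length at 87.5 CPM per kilobase in ENL and 102 CPM per kilobase in control, had 274, 291 and 245 CPM in ENL and 294, 317 and 328 CPM in control. The groups of MCM7 did not overlap, and its log2 fold change of -0.21 (interval -0.43 to 0.00) passed with upper-quartile scaling (adjusted p = 0.0448), library totals (0.00517) and a length and GC correction (0.0304), but not with TMM (0.105).

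The share of a subunit among the units of MCM2 to MCM7 does not depend on how libraries are scaled. Shares of the same total are tied, so lower levels of other subunits raise the share of MCM5 even where its own level stays. MCM5 made up 16%, 16.1% and 16% of these units in ENL libraries, against 11%, 11.4% and 10.6% in control libraries, a difference of 5.01 percentage points. MCM3 made up 14.5% ± 0.382 in ENL and 17.3% ± 0.393 in control (SD, n = 3 each), and MCM4 17.2% ± 0.603 in ENL and 20% ± 0.775 in control. For these 3 subunits the groups did not overlap, and the two-sided exact permutation p was 0.1, the smallest that 3 against 3 libraries allow (0.2 when adjusted over the 6 subunits). The shares of MCM2, MCM6 and MCM7 overlapped between the groups (exact p = 0.8, 0.5 and 0.7). Shares per transcript length gave the same directions, with a difference of 4.85 percentage points for MCM5.

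**Figure D3:**
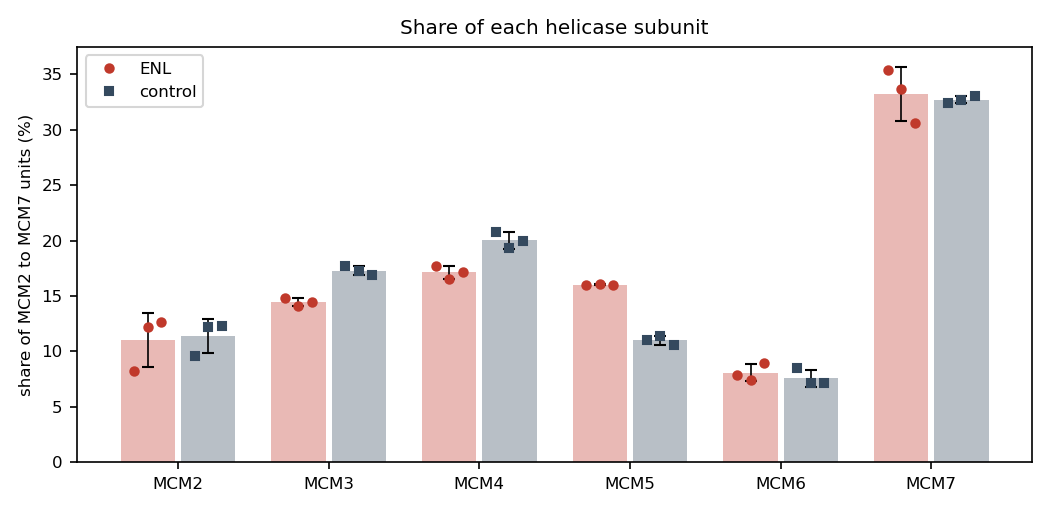
Share of each subunit among the units of MCM2 to MCM7 in percent, with bars for the mean, error bars for the SD (n = 3) and a point for each library; ENL bars stand left of control bars. MCM5 lies at 16% to 16.1% in ENL and at 10.6% to 11.4% in control, and MCM3 and MCM4 are lower in ENL.

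Genes that activate the helicase fell in 3 of 5 cases, with a median log2 fold change of -0.82 against -0.25 for the ring subunits. CDC45 (chromosome 22, 19479459 to 19520612, plus strand), which joins the ring and GINS in the active helicase, had 19.6, 20.6 and 15.7 CPM in ENL, against 33.5, 33.4 and 38.5 CPM in control (log2 fold change -0.91 ± 0.13, adjusted p = 0.00224). GINS1 had 26.3, 26.4 and 28.9 CPM in ENL and 55.7, 50 and 48.8 CPM in control (-0.92 ± 0.09, adjusted p = 0.000608). GINS3 had 11.5, 10 and 9.1 CPM in ENL and 17.7, 17.9 and 18.2 CPM in control (-0.82 ± 0.12, adjusted p = 0.00264). The change was -46.9% for CDC45, -47.2% for GINS1 and -43.2% for GINS3, and their groups stood clear of each other. GINS2, a subunit of the same complex, had 12.9, 12.7 and 9.57 CPM in ENL and 13.7, 12.5 and 12.7 CPM in control, and its groups overlapped (-0.15, 95% interval -0.50 to 0.20). MCM10, which helps the helicase to start, had 9.2, 17.7 and 16.6 CPM in ENL and 21.2, 20.9 and 23.6 CPM in control. All ENL libraries of MCM10 were lower, ENL library 1 most of all, and its log2 fold change of -0.60 ± 0.24 did not pass (adjusted p = 0.0936), except with library totals (0.0413) and in DESeq2's Wald test (0.0491). Without ENL library 1 it was -0.35.

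Of the polymerase, primase, clamp and clamp loader genes, 4 of 6 fell. PCNA (chromosome 20, 5114953 to 5126626, minus strand), the sliding clamp, was the most abundant of the 33 genes per transcript length, at 131 CPM per kilobase in ENL and 218 CPM per kilobase in control. It had 186, 181 and 165 CPM in ENL libraries, against 304, 297 and 288 CPM in control libraries, and fell by 40% (log2 fold change -0.74 ± 0.08, adjusted p = 0.0006). Every ENL library lay well below every control library. POLE2, an accessory subunit of polymerase epsilon, had 12.6, 11.5 and 10.7 CPM in ENL and 19.3, 17.9 and 17.9 CPM in control (-0.66 ± 0.11, adjusted p = 0.00431). POLA1, the catalytic subunit of the polymerase that extends primers, had 36.6, 34.2 and 41 CPM in ENL and 51.6, 48.5 and 49.3 CPM in control (-0.42 ± 0.10, adjusted p = 0.0142). RFC3, a clamp loader subunit, had 44.3, 34.2 and 41.6 CPM in ENL and 61.8, 56.5 and 53.3 CPM in control (-0.51 ± 0.12, adjusted p = 0.0154). All 3 lay below their control libraries, but POLA1 lost its call without control library 1 (adjusted p = 0.0536) or 3 (0.0501), and RFC3 without control library 1 (0.0577).

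The other clamp loader subunit among the 33 genes, RFC4, had 45.2, 40.4 and 35.1 CPM in ENL and 43.7, 38.9 and 43.9 CPM in control, with overlapping groups (log2 fold change -0.07, 95% interval -0.35 to 0.21). PRIM1, the primase subunit that makes the RNA primer, also overlapped between the groups, with 31.6, 24.2 and 24.8 CPM in ENL and 33.2, 28.1 and 26 CPM in control (-0.12, interval -0.46 to 0.23). On the lagging strand, FEN1 (chromosome 11, 61792637 to 61797244, plus strand), the nuclease that removes primer flaps, had 55.2, 56.7 and 54.8 CPM in ENL, against 90.1, 101 and 96.3 CPM in control. It fell by 42% (adjusted p = 0.000546). LIG1, the ligase that seals the remaining nick, had 40.3, 40.7 and 41.2 CPM in ENL and 37.5, 40.8 and 42.7 CPM in control, and its 95% interval ran from -0.19 to 0.22 on the log2 scale. The exons of FEN1 share 166 bases with those of TMEM258 on the opposite strand, and no source used here says whether the libraries kept strand. TMEM258 itself was at 0.47 on the log2 scale (adjusted p = 0.0149), and the sum of both genes at -0.12 (adjusted p = 0.313). Reads within the shared bases, out of a FEN1 transcript of 2296 bases, cannot be told apart without strand. The sum takes in all units of both genes, and TMEM258 averaged 6366 units a library, against 6071 for FEN1. A rise of TMEM258 thus moves the sum towards 0 whatever FEN1 does, and the sum cannot decide on the fall of FEN1. The part of shared reads in that fall was not tested.

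Nucleotide supply genes fell in 3 of 4 cases, by 27.9% to 33.7%. RRM1 and RRM2 encode the large and the small subunit of ribonucleotide reductase, which makes deoxynucleotides. RRM1 had 55.5, 52.2 and 53.2 CPM in ENL and 79.3, 69.8 and 74.1 CPM in control (log2 fold change -0.47 ± 0.08, adjusted p = 0.00499). RRM2 had 61.9, 60 and 76.9 CPM in ENL and 95.6, 90.7 and 98.1 CPM in control (-0.52 ± 0.11, adjusted p = 0.0113). Both subunits were lower in every ENL library. TYMS, thymidylate synthase, had 66.8, 50.7 and 45.1 CPM in ENL and 74.5, 84.6 and 86.3 CPM in control (-0.59 ± 0.15, adjusted p = 0.0221). The call of TYMS was lost without ENL library 2 (adjusted p = 0.0684), control library 2 (0.066) or control library 3 (0.0721) and with the replicate number as a block (0.0533). TYMS shares 967 exon bases with ENOSF1 on the opposite strand, which was at -0.60 on the log2 scale (adjusted p = 0.0187), as was the sum of both genes (adjusted p = 0.00225). TK1, the thymidine kinase of the salvage pathway, had 58, 55.7 and 47.4 CPM in ENL and 49.4, 71.4 and 50.2 CPM in control. Its groups overlapped, and the 95% interval of its log2 fold change was -0.48 to 0.31.

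Of the chromatin assembly factor subunits, which place histones on new DNA, CHAF1A fell and CHAF1B did not pass. CHAF1A had 57, 61 and 51.2 CPM in ENL and 71.2, 75.7 and 76.5 CPM in control (log2 fold change -0.40 ± 0.09, adjusted p = 0.0141), and CHAF1B had 32.9, 29.8 and 29.9 CPM in ENL and 29.9, 28 and 30.3 CPM in control (0.07 ± 0.09, 95% interval -0.15 to 0.29). The intervals of the pair did not overlap. CHAF1A lost its call without control library 2 (adjusted p = 0.0531) or 3 (0.0585).

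Among cyclins E and E2F factors, 4 of 5 fell, with a median log2 fold change of -1.10. That median was -0.76 with a filter of 10 CPM in 3 libraries, which left E2F8 untested. CCNE2, the second of the E-type cyclins that activate CDK2, had 4.17, 5.27 and 7.04 CPM in ENL libraries, against 21, 20.7 and 22.3 CPM in control libraries. It had the largest fall of the 33 genes, 74.2% (log2 fold change -1.96 ± 0.20, adjusted p = 0.000588). CCNE1, its paralogue, had 26.4, 25.2 and 21.1 CPM in ENL and 31.7, 30.9 and 29.6 CPM in control (-0.34 ± 0.11, adjusted p = 0.0485). The interval of CCNE2, -2.43 to -1.48, lay wholly below that of CCNE1, -0.61 to -0.08. CCNE1 was close to the threshold and passed in 7 of 17 other settings, and its adjusted p was 0.0543, 0.0754 and 0.0668 without ENL libraries 1, 2 and 3 and 0.136, 0.125 and 0.102 without control libraries 1, 2 and 3. CCNE2 shares 1629 exon bases with INTS8 on the opposite strand, which averaged 5920 units a library, against 1106 for CCNE2, and was at 0.07 on the log2 scale. The sum of both genes was at -0.20 (adjusted p = 0.0943). Most of its units come from INTS8, so it was bound to lie near 0 and cannot decide on the fall of CCNE2. Reads in the shared bases cannot be told apart without strand, and their part in the value of CCNE2 was not tested.

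E2F2 (chromosome 1, 23506430 to 23531220, minus strand), an activating E2F factor, had 20.4, 23.2 and 23.6 CPM in ENL, against 47, 45.1 and 52.2 CPM in control. It fell by 53.5% (log2 fold change -1.10 ± 0.10, adjusted p = 0.000429), and every control library lay far above every ENL library. E2F1, the founding activator of the family, had 99, 102 and 88.7 CPM in ENL and 106, 99.9 and 113 CPM in control, with groups that overlapped (-0.14 ± 0.09, 95% interval -0.35 to 0.07). E2F8, an atypical E2F that represses the same targets, was the least abundant of the 33 genes per transcript length (1.01 CPM per kilobase in ENL and 2.3 CPM per kilobase in control), with 3.18, 3.92 and 3.58 CPM in ENL and 8.24, 8.03 and 8 CPM in control. It fell by 56% (-1.19 ± 0.14, adjusted p = 0.00107). E2F1 passed with library totals (adjusted p = 0.0154) and with length and GC corrected (0.0432), where its log2 fold change was -0.35 and -0.22.

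The fold changes were set against the GC content of the transcript. Spearman's rho across the 33 genes was 0.40, against 0.05 across 14027 tested genes; these are genes measured in the same 6 libraries and not independent points. CCNE2 had the lowest GC content and CDT1 the highest, and rho with transcript length was -0.05 across the 33 genes. With length and GC corrected, 21 of the 33 genes were lower and 2 higher, and their median log2 fold change was -0.39.

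**Figure D4:**
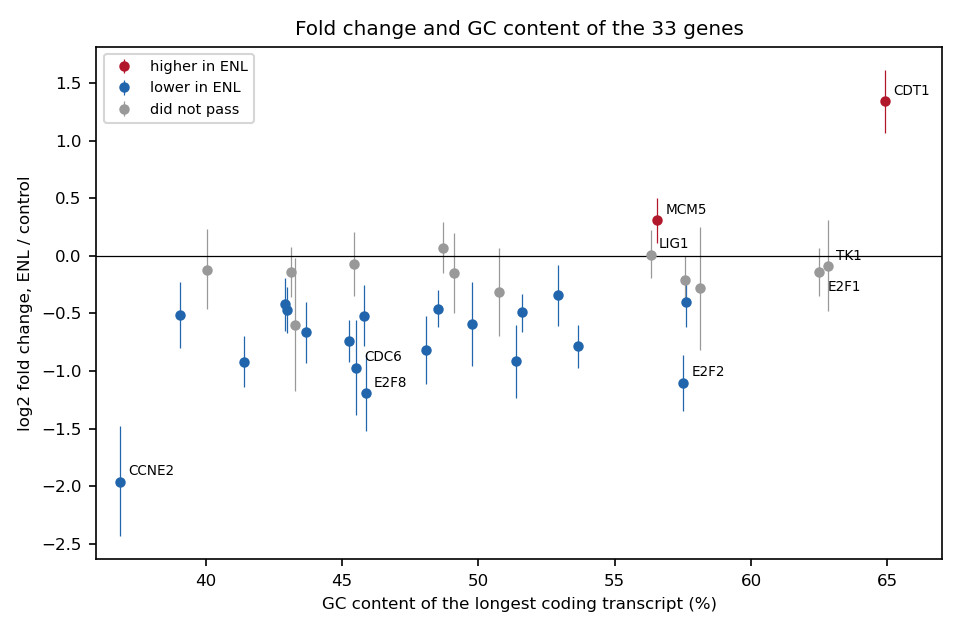
Log2 fold change of the 33 genes, ENL over control, with 95% intervals from edgeR's fit, against the GC content of the longest coding transcript in percent. CDT1 at the right is the highest and CCNE2 at the left the lowest, and genes that did not pass lie across the whole range.

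Other genes of replication and the G1/S transition, 70 genes in 6 roles, fell in 25 cases and rose in 6, with a median log2 fold change of -0.24, against 18.4% lower, 20.0% higher and a median of -0.02 over all genes tested. The roles hold 6 to 18 genes each, and the counts of the polymerase group, the other licensing genes and the G1/S regulators lie near that background and are given only as descriptions. Genes of nucleotide supply and breakdown fell in 5 of 10 cases and rose in 0. CTPS1, CTP synthase, averaged 57 ± 6.9 CPM in ENL and 140 ± 6.62 CPM in control (SD, n = 3 each, adjusted p = 0.000239). Fork and helicase accessory genes fell in 4 of 11 cases and rose in 0. GINS4, which completes the GINS complex, averaged 21.9 ± 0.673 CPM in ENL and 52 ± 1.69 CPM in control (log2 fold change -1.25 ± 0.08, adjusted p = 0.000107), so that 3 of the 4 GINS genes fell and GINS2 did not pass. MCM8, a relative of the ring subunits, fell by 0.74 ± 0.11 on the log2 scale (adjusted p = 0.00278).

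Other licensing genes fell in 3 of 9 cases and rose in 1. CDC7, the kinase that phosphorylates the loaded ring, averaged 13.9 ± 0.847 CPM in ENL and 30.7 ± 0.828 CPM in control (-1.15 ± 0.10 on the log2 scale, adjusted p = 0.000276), and MCMBP, an MCM-binding protein gene, had a log2 fold change of -0.48 ± 0.07. ORC3, a subunit of the origin recognition complex, averaged 70.7 ± 3.33 CPM in ENL and 43.2 ± 2.73 CPM in control and rose by 0.71 ± 0.09 on the log2 scale (adjusted p = 0.00121). GMNN, which encodes geminin, the inhibitor of CDT1, averaged 24.6 ± 1.69 CPM in ENL and 31.5 ± 4.64 CPM in control and did not pass (adjusted p = 0.0678), except with upper-quartile scaling (0.0321), library totals (0.0205) and a filter of 10 CPM in 3 libraries (0.0447). The remaining polymerase, clamp loader and RPA genes fell in 4 of 16 cases and rose in 2. RFC5, a clamp loader subunit, and RPA1, which coats single-stranded DNA, had log2 fold changes of -0.62 ± 0.10 and -0.46 ± 0.08. RFC5 shares 186 exon bases with WSB2 on the opposite strand, and their sum was at -0.26 on the log2 scale (adjusted p = 0.044). WSB2 averaged 5566 units a library, against 2468 for RFC5, and was at -0.1. The sum therefore leans to WSB2 and cannot give the size of the fall of RFC5. The part of shared reads in that fall was not tested. POLD2 and POLD4, accessory subunits of polymerase delta, rose by 0.28 ± 0.09 and 0.61 ± 0.16. POLD2 lost its call in 8 of 17 settings, among them those without ENL library 1 (adjusted p = 0.121), ENL library 2 (0.0696), control library 1 (0.126) or control library 3 (0.14). POLD4 lost it with library totals (0.056) and without ENL library 1 (0.0617), ENL library 2 (0.0563), control library 2 (0.0601) or control library 3 (0.0704).

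Chromatin assembly and maintenance genes fell in 4 of 6 cases and rose in 0. UHRF1, which guides maintenance of DNA methylation, averaged 25 ± 6.61 CPM in ENL and 62.2 ± 12.7 CPM in control (log2 fold change -1.31 ± 0.22, adjusted p = 0.00464), and the histone chaperone gene ASF1B had a log2 fold change of -0.71 ± 0.11. G1/S regulators fell in 5 of 18 cases and rose in 3. CDKN1B, which encodes p27, the inhibitor of cyclin E with CDK2, had 166, 137 and 148 CPM in ENL libraries, against 40.6, 39.7 and 39.6 CPM in control libraries. It rose 3.76-fold (log2 fold change 1.91 ± 0.09, adjusted p = 3.7e-05), whereas CDKN1A, which encodes p21, averaged 49.5 ± 3.01 CPM in ENL and 46.7 ± 1.48 CPM in control and did not pass. TFDP1, the partner protein of E2F factors, averaged 70.5 ± 9.89 CPM in ENL and 139 ± 5.5 CPM in control (adjusted p = 0.000938). The pocket protein gene RBL1 fell by 0.82 ± 0.13 on the log2 scale, and RB1 rose by 0.53 ± 0.12 (adjusted p = 0.0109), a call that was lost with library totals (0.0564). E2F5, a repressive E2F, averaged 24.4 ± 1.12 CPM in ENL and 12.1 ± 1.57 CPM in control. Its sum with RBIS, which shares 969 exon bases on the opposite strand, was at 0.44 on the log2 scale (adjusted p = 0.0103). RBIS averaged 7191 units a library, against 1408 for E2F5, and was itself at 0.33 (adjusted p = 0.0371). The sum is thus mostly RBIS and cannot decide on E2F5. The rise of E2F5 is uncertain, and the part of shared reads in it was not tested. E2F7, like E2F8 an atypical repressor, fell by 0.61 ± 0.15 on the log2 scale, a call lost without ENL library 1 (adjusted p = 0.0517) or control library 2 (0.0539). CDK2 averaged 39.8 ± 3.11 CPM in ENL and 44.5 ± 6.07 CPM in control, and CCNA2, cyclin A, 81.3 ± 8.64 CPM in ENL and 81.3 ± 3.08 CPM in control; neither passed.

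Of 10 G2/M genes set beside them, 3 fell and 2 rose, with a median log2 fold change of -0.14. Over all genes tested 18.4% were lower and 20.0% higher. The G2/M counts lie near that background and are given only as a description. AURKA and CENPE, which act in mitosis, had log2 fold changes of -0.77 ± 0.07 and -1.11 ± 0.15, and CDC20, an activator of the anaphase-promoting complex, rose by 0.80 ± 0.09. PLK1 rose by 0.33 ± 0.08, a call lost with upper-quartile scaling (adjusted p = 0.0579), library totals (0.267) and without ENL library 2 (0.0515), control library 1 (0.0738) or control library 2 (0.0755). The proliferation marker MKI67 had 107, 65.6 and 149 CPM in ENL and 128, 169 and 187 CPM in control, with overlapping groups (log2 fold change -0.59, 95% interval -1.35 to 0.17).

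**Figure D5:**
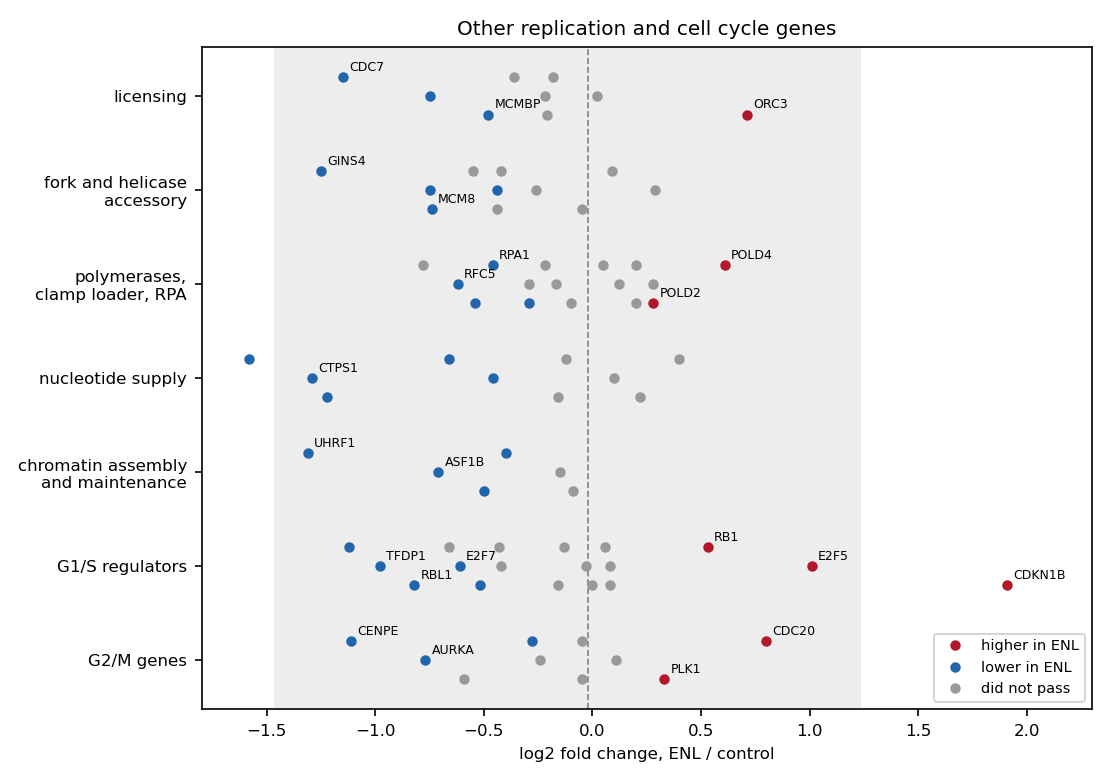
Log2 fold change, ENL over control, of 80 other genes by role, with 1 point per gene; names are given for the genes described in the text that passed. The grey band spans the central 90% of all tested genes and the dashed line marks their median (-0.02). CDKN1B lies at 1.91, and most genes that passed lie to the left of 0.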

How the data were processed

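RNA was sequenced from 6 samples of the BT549 cell line, 3 labelled ENL and 3 labelled control. The deposited table holds an estimated count per gene and library as whole numbers, in which 1 fragment is worth about 4 units (70.8% to 73.1% of low values lie at a multiple of 4 or 1 above). STAR, StringTie, FastQC and DESeq2 are listed with the build hg38, per the submitters' processing notes, without versions or roles. No source used here gives the annotation.

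The filterByExpr function of edgeR (minimum count 10) left 14086 genes, which were TMM-scaled, expressed as CPM from the deposited counts and tested together in edgeR's quasi-likelihood test (group alone, two-sided, Benjamini-Hochberg, threshold 0.05). Fold changes are ENL over control with standard errors and 95% intervals. R 4.3.3, edgeR 4.0.16, limma 3.58.1, DESeq2 1.42.0 and mgcv 1.9.3 were used. The test was checked on simulated data in which a small share of genes changed, up or down at random. That check does not cover changes in as many genes as passed here. The 33 genes, their roles and the other lists were chosen with earlier results of these data known. All 33 genes are named; of each other role, up to 2 per direction with the smallest adjusted p, and always RB1, CDKN1A, CCNA2, CDK2, GMNN, MKI67 and E2F7; 1 gene this rule names is not reported here. Coordinates, transcript length, GC content and exon overlaps are from GENCODE 29 (GRCh38, the assembly hg38 names), and promoters from RefSeq. No replicate pair agreed within sampling noise (chi-square per degree of freedom 21.74 to 56.38), so all 6 libraries were counted.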

Additional observations from a re-analysis of the deposited data

How the results depend on the processing

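Of the 21 genes of the 33 that passed, 15 passed in every one of up to 17 other settings that tested them, and none of the 21 changed direction. The exceptions were MCM5, POLA1, RFC3, TYMS, CHAF1A and CCNE1. Summed with an exon-sharing neighbour, FEN1 and CCNE2 did not pass either. Such a sum takes in all units of the neighbour and cannot decide on the gene itself. The number lower was 15 to 19 and the number higher 1 to 2 when a library was left out (1 without ENL library 2, control library 1 or control library 3), and the number higher was 1 with upper-quartile scaling and 1 with library totals. Library totals, which shift all genes downwards, gave 43 lower and 4 higher genes among the 80 other genes, against 28 and 8; leaving out a library gave 19 to 32 lower and 5 to 9 higher there (5 without ENL library 2). Of all genes tested, 3815 to 6033 passed without a library, against 5404 with all. With the replicate number as a block, 17 of the 33 genes were lower and 2 higher. Correlations of same-numbered deviations were 0.03, 0.0455 and 0.0797, and those of differently numbered pairs ran from -0.0752 to 0.0322. Whether same-numbered libraries share a batch is not in the labels and was not tested.

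Directions turned only for genes that did not pass. LIG1 was -0.07 with upper-quartile scaling, -0.19 with library totals, -0.02 with the 10 CPM filter and between -0.03 (without control library 1) and 0.06 when a library was left out, and CHAF1B was -0.01 and -0.14 with the same pair of scalings. When a library was left out, RFC4 lay between -0.16 and 0.04 (0.04 without ENL library 3) and TK1 between -0.18 and 0.11, with 0.01 without ENL library 3 and 0.11 without control library 2. CCNA2 was -0.09 with upper-quartile scaling, -0.20 with library totals, 0 in limma-voom and with the block, -0.03 with the 10 CPM filter, -0.01 with counts divided by 4 and -0.06 to 0.09 without a library. CDKN1A was 0 with upper-quartile scaling and -0.12 with library totals. The cause was not tested. The gene of the 33 with the fewest units, E2F8, had 217 to 721 units a library.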

Other observations

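Ratios within a library do not depend on how libraries are scaled. The ratio of CDT1 to GMNN units was 6.25, 6.06 and 4.28 in ENL libraries 1, 2 and 3, against 1.79, 1.88 and 1.46 in control libraries, and that of CDT1 to CDC6 was 5.34, 5.34 and 3.64 in ENL, against 0.798, 1.26 and 0.907 in control. The ratio of CCNE2 to CCNE1 units was 0.158, 0.209 and 0.333 in ENL and 0.664, 0.671 and 0.751 in control. E2F2 stood to E2F1 at 0.206, 0.227 and 0.266 in ENL and at 0.446, 0.452 and 0.46 in control. By contrast, the ratio of RRM2 to RRM1, the subunits of one enzyme, was 1.12, 1.15 and 1.45 in ENL and 1.21, 1.3 and 1.32 in control, so that its groups overlapped. These pairs were chosen after the values were seen, and the ratios are descriptions.

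The ratio of the highest to the lowest library was 1.2 in ENL and 1.11 in control for the median gene of the 33, and 1.3 in ENL and 1.17 in control for the median of 13513 tested genes with counts in all libraries. It was larger in ENL for 75.8% of the 33 genes and for 68.3% of those 13513 genes, so the wider ENL spread was shared by the whole table.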
